A study of Mus musculus with 20 samples.

Results

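The chemokine receptor gene Cxcr2 and 6 CXC chemokine genes, Cxcl1, Cxcl2, Cxcl3, Cxcl5, Ppbp and Pf4, were followed through the sorted cells of mouse mammary tumours. These 7 genes were taken by symbol from the gene count table, 7 of 52783 genes. The tumours were made by injecting 1000000 cells of either line into a mammary fat pad of young adult female BALB/cJ mice, whose immune system is intact. The 66cl4 line is metastatic and the 67NR line is not, and both come from the 4T1 model of mouse breast cancer. Resected tumours were dissociated and sorted into CD45+ cells, the leukocytes, and CD45- cells, which hold the injected cancer cells together with fibroblasts, endothelial cells and other stroma. The 4 groups, 66cl4 CD45+, 67NR CD45+, 66cl4 CD45- and 67NR CD45-, held 5 libraries each, and both gates were taken from the same 5 animals per tumour. Each tumour type rests on 1 cell line, the mice carried no other treatment, and no tumour-free mammary tissue was among the libraries.

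CXCR2 is a G protein-coupled receptor best known from neutrophils, which it draws out of the bone marrow and into inflamed tissue. Its agonists are small secreted CXC chemokines that carry a glutamate-leucine-arginine (ELR) motif before their first cysteines. In the mouse these include CXCL1, CXCL2, CXCL3 and CXCL5, and the processed form of the Ppbp product, which platelets store in their granules. Pf4 encodes platelet factor 4, another platelet granule chemokine that lacks the ELR motif and is not a classical CXCR2 agonist. In tumours these chemokines can come from cancer cells, fibroblasts, macrophages and neutrophils themselves.

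Ptprc, the gene of CD45, followed the sort gate named in the library titles in all 20 libraries. Its normalised count, the count divided by the library's size factor, ran from 15890 to 28449 in the CD45+ libraries and from 10.6 to 473.4 in the CD45- libraries. For 66cl4 animals 5 and 6 the titles and the recorded cell types contradict each other, so the titles were used and results are also given without these 2 animals. Total counts per library ranged from 12960000 to 28080314. In these bulk libraries, fewer cells of a type and less RNA per cell cannot be told apart.

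**Figure D1:**
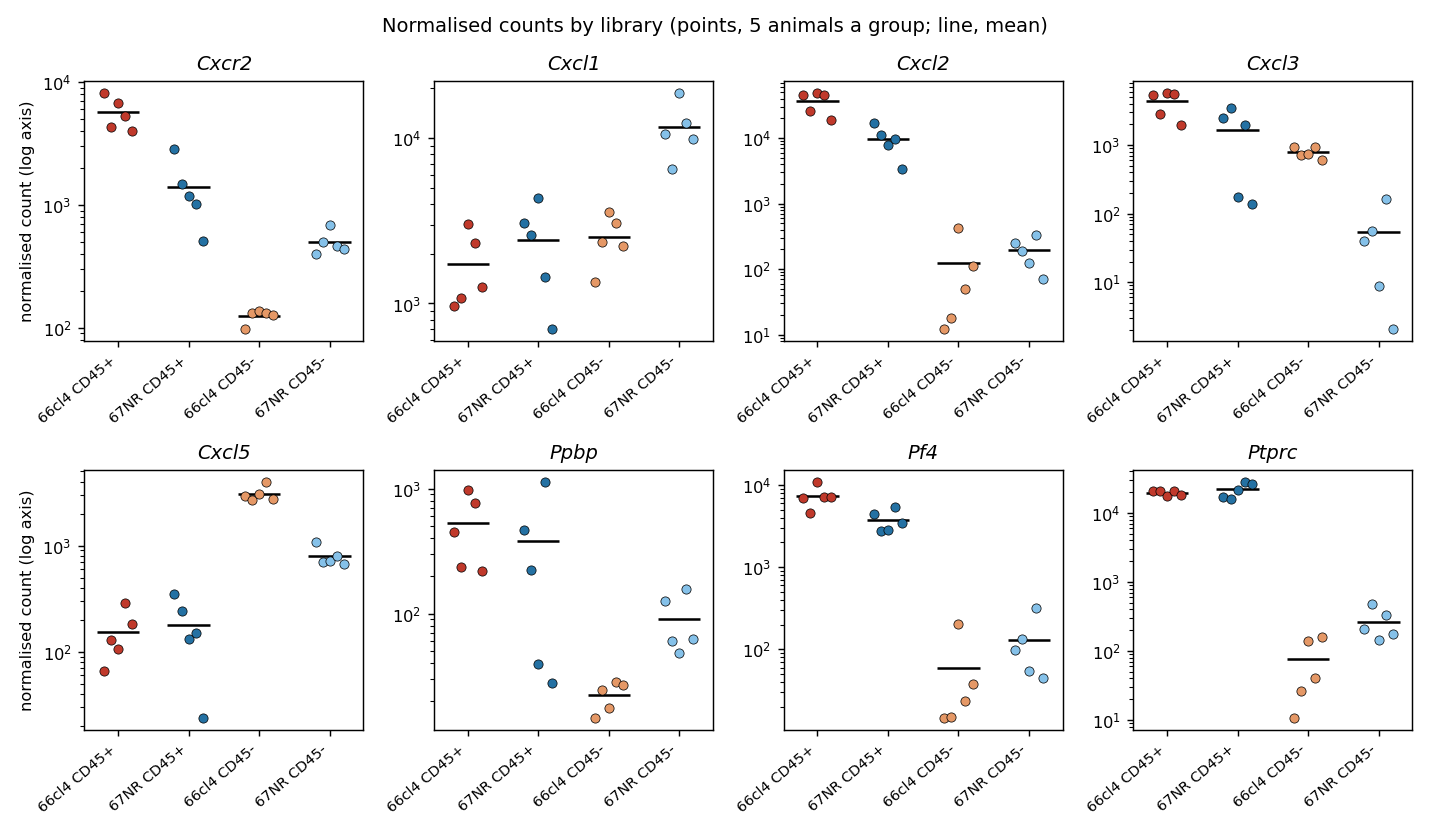
Normalised counts (log axis) of the 7 genes and of Ptprc in each library, with 5 animals a group as points and the group mean as a line. Cxcr2, Cxcl2 and Pf4 were highest in 66cl4 CD45+ cells, Cxcl1 in 67NR CD45- cells and Cxcl5 in 66cl4 CD45- cells.

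Cxcr2 was most abundant in the leukocytes of 66cl4 tumours. Its normalised counts in 66cl4 CD45+ cells of animals 3 to 7 were 8160, 4265, 6695, 5314 and 3965, with a mean of 5680 ± 1750 (SD, n = 5). In 67NR CD45+ cells of animals 1, 4, 5, 6 and 7 they were 2827, 1466, 1184, 1026 and 504.1, with a mean of 1401 ± 870.2 (SD, n = 5). The 2 groups did not overlap, and the log2 fold change was 2.01 (SE 0.42, adjusted p = 0.00724 by edgeR's quasi-likelihood test over all genes). Without 66cl4 animals 5 and 6 it was 1.95 (SE 0.49, adjusted p = 0.0336). A gene was called where its adjusted p was under 0.05 and its log2 fold change exceeded 1 in size. By that rule 2 of the 7 genes, Cxcr2 and Cxcl2, were higher in 66cl4 CD45+ cells, beside 5.01% of the 14676 genes tested. None of the 7 was lower, beside 6.82% of all genes, and none had an unadjusted p under 0.05 in that direction or a call with DESeq2.

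Cxcr2 went the other way in the CD45- cells. The normalised counts in 66cl4 CD45- cells of animals 3 to 7 were 96.9, 132.2, 138.2, 131.7 and 127.8. In 67NR CD45- cells of animals 1, 4, 5, 6 and 7 they were 401.9, 500.4, 681.4, 462.5 and 435.7. Every 67NR library was thus above every 66cl4 library, and the log2 fold change of 66cl4 against 67NR was -1.95 (SE 0.15, adjusted p = 5.76e-08), or -1.99 (SE 0.19, adjusted p = 4.92e-06) without 66cl4 animals 5 and 6. The difference between the gates in this tumour effect was 3.99 on the log2 scale (SE 0.45, adjusted p = 9.27e-07 for the interaction). The interaction was past an adjusted p of 0.05 for 5 of the 7 genes, beside 43.1% of the 16453 genes tested over all 20 libraries. That fit did not pair the gates of an animal. In a paired fit with the animal as a block, Cxcl3 (-2.69) and Ppbp (3.04) also passed.

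**Figure D2:**
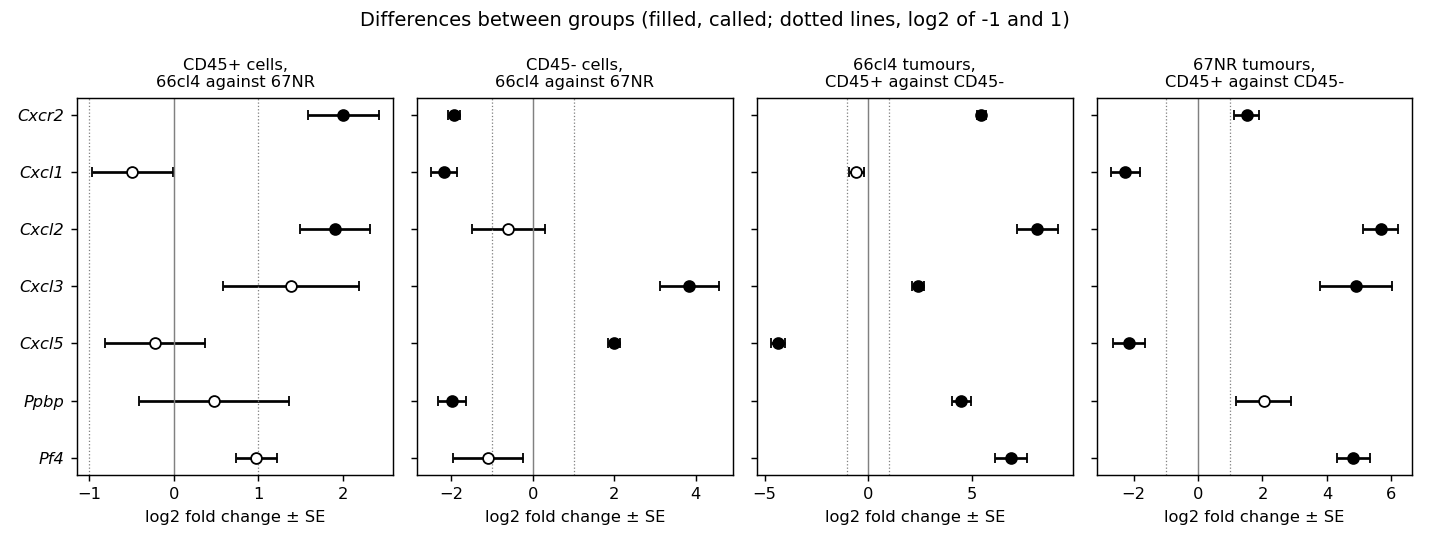
Log2 fold changes with their standard errors for the 7 genes in the 4 comparisons, each panel on its own axis, with filled points for called genes. Cxcr2 was higher in 66cl4 CD45+ cells (2.01) and lower in 66cl4 CD45- cells (-1.95) than in the matching 67NR cells.

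Between the gates, Cxcr2 was a leukocyte gene in 66cl4 tumours and less clearly so in 67NR tumours. The fits between gates, here and below, did not pair the gates of an animal. In 66cl4 tumours the log2 fold change of Cxcr2 in CD45+ against CD45- cells was 5.46 (SE 0.22, adjusted p = 1.55e-09). In 67NR tumours it was 1.51 (SE 0.38, adjusted p = 0.00411), and the groups overlapped, since animal 7 had 504.1 in CD45+ cells and animal 5 had 681.4 in CD45- cells. Within each 67NR animal the CD45+ level was the higher, in 5 of 5 animals, by ratios from 1.16 in animal 7 to 7.03 in animal 1. Expressed the other way, the CD45- level of Cxcr2 was 14.2% to 86.4% of the CD45+ level in 67NR animals and 1.19% to 3.22% in 66cl4 animals. For Ptprc that share was 0.669% to 2.98% in 67NR animals and 0.0518% to 0.891% in 66cl4 animals. Over the 16 neutrophil genes examined, among them S100a8, S100a9, Csf3r and Ly6g, the median share, from group means, was 1.8% in 67NR and 0.221% in 66cl4 tumours. Single genes reached 61.3% in 67NR (Ltf) and 76.4% in 66cl4 tumours (Elane, with means under 1). Cxcr2 in CD45- cells therefore stood at a larger share of its leukocyte level than Ptprc did in every animal of both tumours.

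**Figure D3:**
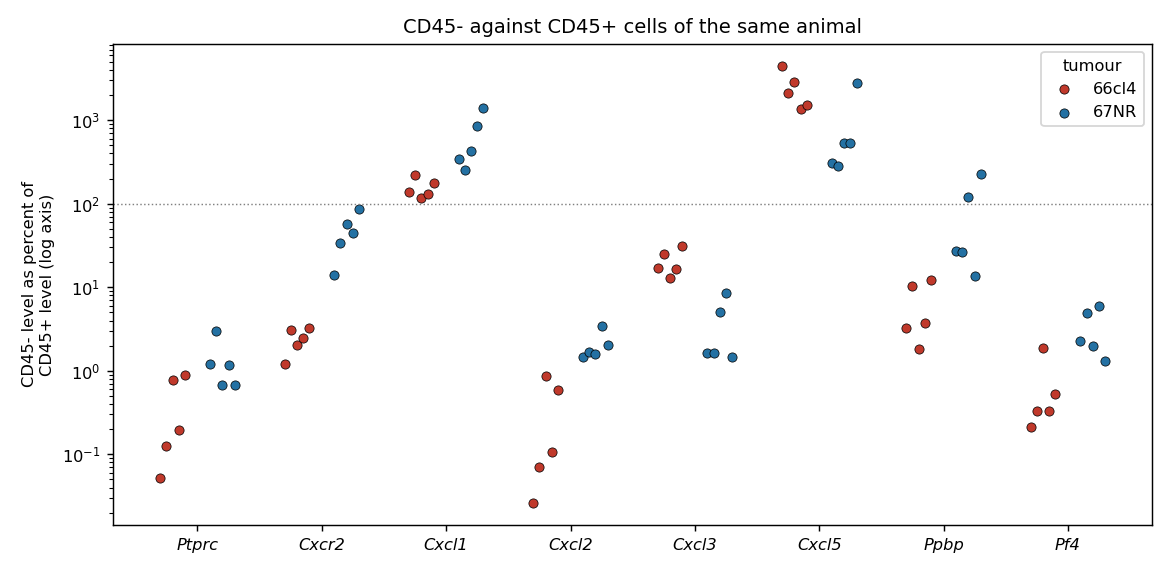
Level in CD45- cells as a percent of the level in CD45+ cells of the same animal (log axis), for Ptprc and the 7 genes, with 5 animals per tumour and a dotted line at 100%. Cxcr2 in 67NR tumours lay between 14.2% and 86.4%, against 0.669% to 2.98% for Ptprc.

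Most of the neutrophil genes tested moved with Cxcr2 in the CD45+ cells. The summed normalised counts of all 16 ranged from 57040 to 156019 in 66cl4 CD45+ libraries and from 12965 to 64041 in 67NR CD45+ libraries. S100a8 and S100a9 were the largest parts, with means of 24650 and 47090 in 66cl4 and 5861 and 11700 in 67NR CD45+ cells. Of the 16 genes, 13 were tested. In 66cl4 CD45+ cells 9 were higher, beside 5.01% of all genes, and none was lower, beside 6.82%. The median log2 fold change was 1.48, beside a median of 0.01 over all genes. Without 66cl4 animals 5 and 6, 4 were called higher. In these CD45+ cells S100a9, a calcium-binding protein abundant in neutrophils, had a log2 fold change of 1.99 (adjusted p = 0.0349, or 1.59 with adjusted p = 0.13 without 66cl4 animals 5 and 6), and Csf3r, the receptor for the neutrophil growth factor G-CSF, had 1.43 (adjusted p = 0.00277). No gene of the list was at 0 in either CD45+ group. The primary granule genes Mpo and Elane stayed low, with means of 2.34 and 0.28 in 66cl4 and 37.3 and 18.3 in 67NR CD45+ cells. Ngp, Camp and Ltf also had no higher mean in 66cl4 CD45+ cells, with 41.8, 3.68 and 39.9 against 62.3, 10.6 and 41.3. In CD45- cells 1 of the 10 tested was higher in 66cl4 tumours, beside 13.2% of all genes, and 1 was lower, beside 18.9%. The lower count was 6 without 66cl4 animals 5 and 6.

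Scaled to this list, Cxcr2 overlapped between the leukocytes of both tumours. For every 1000 counts of the neutrophil list there were 38.0 to 69.5 counts of Cxcr2 in 66cl4 CD45+ libraries and 38.9 to 49.2 in 67NR CD45+ libraries. In CD45- cells the same quantity was 188 to 510 in 66cl4 and 460 to 1590 in 67NR libraries. The summed list was 252.2 to 734.2 in 66cl4 and 417.3 to 873.1 in 67NR CD45- libraries, and Ngp, Camp and Mpo were at 0 in all 66cl4 CD45- libraries. The part of neutrophil number in the CD45+ difference of Cxcr2 was not tested.

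**Figure D4:**
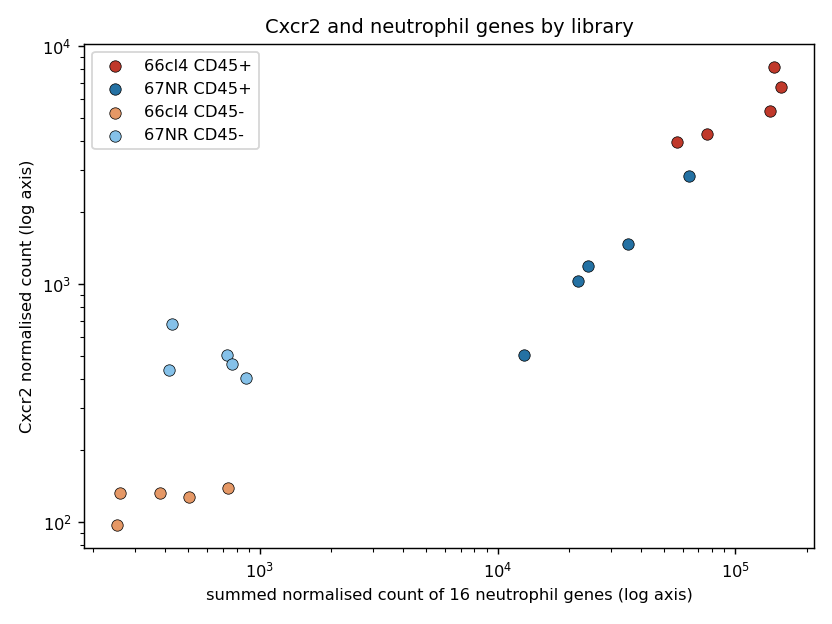
Normalised count of Cxcr2 against the summed normalised count of 16 neutrophil genes, 1 point per library on log axes. The CD45+ libraries of both tumours lie along one band, from 12965 summed counts upwards, and the 67NR CD45- libraries have 401.9 or more Cxcr2 counts at 873.1 or fewer summed counts.

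Genes close to the receptor were measured beside it. Cxcr1, the sister receptor for ELR chemokines, had a mean of 54.7 ± 24.9 (SD, n = 5) in 66cl4 and 12.2 ± 12.05 (SD, n = 5) in 67NR CD45+ cells (log2 fold change 2.20, adjusted p = 0.0275, or 1.95 with adjusted p = 0.113 without 66cl4 animals 5 and 6), and it was at 0 in all 67NR CD45- libraries. Cxcr4, the CXCL12 receptor that holds neutrophils in the marrow, was also higher in 66cl4 CD45+ cells (log2 fold change 1.17, adjusted p = 0.00124). Cxcr4 was lower in 66cl4 than in 67NR CD45- cells (log2 fold change -2.15, adjusted p = 0.000771), while its ligand Cxcl12, a stromal chemokine, differed there by 0.39 (adjusted p = 0.00826), under the fold threshold. Cxcr3, a receptor of activated T cells, went opposite to Cxcr2. It was lower in 66cl4 CD45+ cells (log2 fold change -1.06, adjusted p = 0.0432, or -0.79 with adjusted p = 0.159 without 66cl4 animals 5 and 6). It was higher in 66cl4 CD45- cells (1.90, adjusted p = 0.00944), though from low means of 16.5 in 66cl4 and 4.25 in 67NR. Cxcl15, a neighbour of the ligand genes, was higher in 66cl4 CD45- cells, with means of 21.6 against 3.59 (log2 fold change 2.60, adjusted p = 4.11e-05). Csf3, the gene of G-CSF, and the scavenger receptor gene Ackr1 failed the filter on low counts in all 4 comparisons.

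Of the 19 genes examined for signalling below CXCR2, from the G protein subunit Gnai2 to the integrin pair Itgam and Itgb2, 2 were higher and none lower in 66cl4 CD45+ cells (median log2 fold change 0.16), beside 5.01% and 6.82% of all genes. These were the kinase gene Fgr (log2 fold change 1.21, adjusted p = 0.000843) and Itgam (1.18, adjusted p = 0.00271). In CD45- cells 7 of the 19 were lower and 1 was higher in 66cl4 tumours, beside 18.9% and 13.2% of all genes, with a median log2 fold change of -0.89 beside -0.01 over all genes. The higher gene was the leukocyte integrin Itgb2, with a mean of 3434 ± 210.4 (SD, n = 5) in 66cl4 and 231.8 ± 64.2 (SD, n = 5) in 67NR CD45- cells. Pik3r5, a regulatory subunit of the PI3-kinase driven by G protein-coupled receptors, was lower in 66cl4 CD45- cells, with 151.3 ± 37.7 (SD, n = 5) against 814.5 ± 135.3 (SD, n = 5). Between the gates, 15 of the 19 were higher in CD45+ cells in each tumour, beside 23.9% of all genes in 66cl4 and 20.2% in 67NR. In each tumour 1 gene, Plcb3, was lower, beside 20.5% in 66cl4 and 19.6% in 67NR.

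The ligand genes lie together on mouse chromosome 5, in the RefSeq order Cxcl5, Ppbp, Pf4, Cxcl3, Cxcl15, Cxcl1 and Cxcl2, whereas Cxcr2 lies on chromosome 1. RefSeq promoter sequences of GRCm38.p6, from 250 bases before to 50 bases after the annotated start, were at hand for 6 of the 7 genes, all but Cxcl5. They were searched on both strands for GGGNNTTTCC, an NF-κB-type site, a motif picked with these sequences in view. Cxcl1 and Cxcl2 held 2 matches each, Cxcl3 held 1, and Cxcr2, Ppbp and Pf4 held none, while 1.63% of 32851 promoters of that length held at least 1. The same 10 letters, GGGAATTTCC, occurred in the promoters of Cxcl1, Cxcl2 and Cxcl3. The stretches around these matches are shown because the 3 neighbouring genes share them, while Cxcl1 had its highest mean in 67NR CD45- cells and Cxcl2 and Cxcl3 had theirs in 66cl4 CD45+ cells. They are on the plus strand of chr5:90891106-90891203, chr5:90903752-90903850 and chr5:90785978-90786057, respectively, all upstream of the annotated starts, with the matches in capitals.
Cxcl1: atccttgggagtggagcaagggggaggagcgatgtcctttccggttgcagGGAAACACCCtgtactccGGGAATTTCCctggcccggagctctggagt
Cxcl2: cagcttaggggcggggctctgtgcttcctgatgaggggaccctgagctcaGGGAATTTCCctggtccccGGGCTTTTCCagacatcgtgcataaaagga
Cxcl3: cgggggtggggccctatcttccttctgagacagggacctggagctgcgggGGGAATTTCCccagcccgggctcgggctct
The first match in Cxcl1 is on the minus strand and the others are on the plus strand. The shared letters began 71 bases before the start of Cxcl1, 97 before that of Cxcl2 and 73 before that of Cxcl3.

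Cxcl1, a chemokine that stromal and tumour cells release on inflammatory signals, was the ligand gene of the 67NR non-immune cells. Its normalised counts in 67NR CD45- cells of animals 1, 4, 5, 6 and 7 were 10639, 6492, 18748, 12377 and 9812. In 66cl4 CD45- cells of animals 3 to 7 they were 1349, 2353, 3553, 3054 and 2219. All 67NR libraries were above all 66cl4 libraries, and the log2 fold change of 66cl4 against 67NR was -2.18 (SE 0.32, adjusted p = 0.000106), or -2.50 (SE 0.35) without 66cl4 animals 5 and 6. In CD45- cells 3 of the 7 genes, Cxcr2, Cxcl1 and Ppbp, were lower in 66cl4 tumours, beside 18.9% of 14844 genes, and 2, Cxcl3 and Cxcl5, were higher, beside 13.2%. The lower count was 5 without 66cl4 CD45- animal 5. The summed level of 9 fibroblast genes was 9567 to 15435 in 66cl4 and 14567 to 22755 in 67NR CD45- libraries, that of 8 endothelial genes 524.8 to 1061 and 1114 to 4486, and their part in the Cxcl1 difference was not tested. The fibroblast genes did not move as one. Of the 9, 4 were lower in 66cl4, beside 18.9% of all genes, and 1 was higher, beside 13.2%. The lower count was 2 without 66cl4 animals 5 and 6. Dpt led the lower genes, with means of 35.7 and 4261, and Pdgfrb was the higher gene, with 1853 and 734.6.

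In the leukocytes Cxcl1 did not separate the tumours. The normalised counts were 962.5, 1077, 3017, 2329 and 1264 in 66cl4 CD45+ cells and 3076, 2584, 4321, 1452 and 696.5 in 67NR CD45+ cells. The groups overlapped, with a log2 fold change of -0.49 (SE 0.48, adjusted p = 0.506), or -1.15 (SE 0.52, adjusted p = 0.156) without 66cl4 animals 5 and 6. Between the gates of 67NR tumours Cxcl1 was lower in CD45+ cells by -2.25 on the log2 scale (SE 0.45, adjusted p = 0.000967). In 66cl4 tumours the gates overlapped, with a log2 fold change of -0.57 (SE 0.34, adjusted p = 0.158), and the CD45+ level was 45.8% to 84.9% of the CD45- level within the animals. The interaction for Cxcl1 was 1.71 (SE 0.59, adjusted p = 0.0248), and it was 1.45 (adjusted p = 0.0862) without 66cl4 animals 5 and 6. Leaving out 1 library lost the call for 4 of 20, with 1.45 and 1.59 without 66cl4 CD45- animals 3 and 4, 1.31 without 66cl4 CD45+ animal 5 and 1.44 without 67NR CD45- animal 5.

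Cxcl2, a chemokine made chiefly by activated macrophages and neutrophils, was the leading ligand gene of 66cl4 leukocytes. Its normalised counts in 66cl4 CD45+ cells of animals 3 to 7 were 45689, 25712, 48952, 45137 and 18742. In 67NR CD45+ cells of animals 1, 4, 5, 6 and 7 they were 16858, 11012, 7754, 9646 and 3404. The lowest 66cl4 library was above the highest 67NR library, and the log2 fold change was 1.91 (SE 0.41, adjusted p = 0.00778), or 1.62 (SE 0.47, adjusted p = 0.0494) without 66cl4 animals 5 and 6. For neither Cxcl2 nor Cxcr2 did this difference pass a test against a log2 fold change of 1, where the adjusted p was 0.129 and 0.104. The summed level of 10 macrophage genes was the lower in 66cl4 CD45+ libraries, 59695 to 93645 against 104182 to 159584 in 67NR. The genes did not move as one, since 2 of the 10 were lower, beside 6.82% of all genes, and 0 were higher, beside 5.01%. Apoe had means of 10700 in 66cl4 and 27490 in 67NR, whereas Cd68 had 8166 and 6568 and Mertk had 546.1 and 298.6. The part of the macrophage genes in the Cxcl2 difference was not tested.

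In CD45- cells Cxcl2 was low in both tumours. In 66cl4 CD45- cells its normalised counts were 11.9, 18.1, 424.5, 48.9 and 111.8, and in 67NR CD45- cells they were 247.4, 186.1, 124.7, 333.6 and 69.5. Animal 5 of 66cl4 stood above the rest of its group, and the groups overlapped (log2 fold change -0.60, SE 0.89, adjusted p = 0.576). Without that library the log2 fold change was -1.97 (adjusted p = 0.0281), and without 66cl4 animals 5 and 6 it was also -1.97 (adjusted p = 0.0611), which is not past the threshold. The same library had the highest summed count of 10 macrophage genes in its group, 2338 against 200.4 to 1082 in the others, and the part of these cells in its Cxcl2 level was not tested. As a share of the CD45+ level, Cxcl2 in CD45- cells was 0.0261% to 0.867% in 66cl4 and 1.47% to 3.46% in 67NR animals, beside the macrophage genes, whose group means gave 0.496% to 1.47% and 1.81% to 4.58%. The log2 fold change of CD45+ against CD45- cells was 8.18 (SE 1.01, adjusted p = 1.59e-05) in 66cl4 and 5.67 (SE 0.54, adjusted p = 3.52e-06) in 67NR tumours, and the interaction was 2.54 (SE 0.94, adjusted p = 0.0361). That call was lost for 14 of the 20 libraries when each was left out, with values from 2.14 to 3.81 over all 20, and the interaction was 3.68 (adjusted p = 0.0061) without 66cl4 animals 5 and 6.

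Cxcl3, a close relative of Cxcl1 and Cxcl2, was present in the non-immune cells of 66cl4 tumours and nearly absent from those of 67NR tumours. Its normalised counts in 66cl4 CD45- cells of animals 3 to 7 were 933.1, 716.4, 737.6, 924.2 and 608.9. In 67NR CD45- cells of animals 1, 4, 5, 6 and 7 they were 40.4, 56.3, 8.78, 164.1 and 2.05, the last from 2 counts. The groups did not overlap, and the log2 fold change was 3.85 (SE 0.72, adjusted p = 0.00113), or 3.82 (SE 0.88, adjusted p = 0.00799) without 66cl4 animals 5 and 6. Within 66cl4 animals the CD45- level of Cxcl3 was 12.8% to 30.9% of the CD45+ level, and within 67NR animals it was 1.47% to 8.48%. From group means, the same share in 66cl4 tumours was 0.496% to 1.47% for the macrophage genes. It had a median of 0.221% for the neutrophil genes, with Ltf at 19.7% and Elane, from means under 1, at 76.4%. The part of leukocytes carried into the CD45- gate was not tested.

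Among the leukocytes Cxcl3 varied widely between 67NR animals. The normalised counts were 5417, 2858, 5777, 5614 and 1973 in 66cl4 CD45+ cells, and 2474, 3449, 173.8, 1935 and 138.9 in 67NR CD45+ cells. Animals 5 and 7 of 67NR were more than 10 times below the other 3 animals, and the difference between the tumours, with a log2 fold change of 1.39 (SE 0.80, adjusted p = 0.253), was within this spread. CD45+ cells were above CD45- cells in both tumours, by 2.43 (SE 0.29, adjusted p = 1.04e-05) in 66cl4 and 4.90 (SE 1.11, adjusted p = 0.00211) in 67NR on the log2 scale. The interaction for Cxcl3 was -2.43 (SE 1.09, adjusted p = 0.0783), and -2.69 (adjusted p = 0.000907) in the paired fit with the animal as a replicate block.

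Cxcl5, a chemokine typical of epithelial and stromal cells, was the member most confined to CD45- cells in 66cl4 tumours. The normalised counts in 66cl4 CD45- cells of animals 3 to 7 were 2927, 2687, 3081, 4004 and 2730. In 67NR CD45- cells of animals 1, 4, 5, 6 and 7 they were 1076, 693.2, 709.5, 799.2 and 668.9. The groups did not overlap, and the log2 fold change of 66cl4 against 67NR was 2.00 (SE 0.15, adjusted p = 4.31e-08), or 1.87 (SE 0.15, adjusted p = 8.54e-07) without 66cl4 animals 5 and 6. This direction was opposite to that of Cxcl1 in the same libraries. The summed level of 8 epithelial genes was 6113 to 6870 in 66cl4 and 147.8 to 539.8 in 67NR CD45- libraries, and its part in the Cxcl5 difference was not tested. That sum was mostly the keratin genes Krt8, with means of 5353 and 61.6, and Krt18, with 1149 and 58.6. Of the 6 genes tested these 2 were higher in 66cl4, beside 13.2% of all genes. The epithelial adhesion gene Epcam was lower, with 12.1 against 32.8 (log2 fold change -1.41, adjusted p = 0.0267), beside 18.9% of all genes.

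Leukocytes held little Cxcl5, between 65.4 and 289.3 normalised counts in the 66cl4 libraries and between 23.7 and 352.7 in those of 67NR, with the groups overlapping (log2 fold change -0.22, SE 0.59, adjusted p = 0.833). The log2 fold change of CD45+ against CD45- cells was -4.34 (SE 0.35, adjusted p = 3.51e-07) in 66cl4 and -2.14 (SE 0.50, adjusted p = 0.00248) in 67NR tumours, with an interaction of -2.17 (SE 0.60, adjusted p = 0.00731). The CD45+ level was 2.23% to 7.23% of the CD45- level in 66cl4 animals and 3.54% to 34.9% in 67NR animals. The same share, from group means, had a median of 6.86% in 66cl4 and 9.8% in 67NR tumours over 9 fibroblast genes. The part of CD45- cells carried into the CD45+ gate was not tested.

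In 66cl4 tumours 5 of the 7 genes were higher in CD45+ than in CD45- cells, beside 23.9% of 14916 genes, and 1, Cxcl5, was lower, beside 20.5%. In 67NR tumours 4 were higher, beside 20.2% of 15063 genes, and 2, Cxcl1 and Cxcl5, were lower, beside 19.6%. The median log2 fold change over the 7 genes was 4.50 in 66cl4 and 2.05 in 67NR tumours, against 0.00 and -0.05 over all genes.

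Ppbp, the gene of the platelet basic protein, was scarce in CD45- cells and uneven in CD45+ cells, which were below the CD45- cells in 67NR animals 5 and 7. Its normalised counts were 447.9, 235.1, 971.9, 762.8 and 218.9 in 66cl4 CD45+ cells of animals 3 to 7. In 67NR CD45+ cells of animals 1, 4, 5, 6 and 7 they were 465.1, 224.2, 39.6, 1141 and 27.8. The groups overlapped (log2 fold change 0.48, SE 0.89, adjusted p = 0.75), and 67NR animals 5 and 7, low for Cxcl3, were also the lowest for Ppbp. In CD45- cells it was 14.6 to 28.7 in 66cl4 and 48.3 to 157.8 in 67NR libraries, with a log2 fold change of -1.98 (SE 0.34, adjusted p = 0.000174), or -1.96 (SE 0.44, adjusted p = 0.00257) without 66cl4 animals 5 and 6. The gates differed by 4.50 (SE 0.47, adjusted p = 3.34e-06) in 66cl4 tumours. In 67NR tumours they differed by 2.05 (SE 0.85, adjusted p = 0.0519), the CD45+ level being the higher in 3 of 5 animals. The interaction for Ppbp was 2.48 (SE 1.05, adjusted p = 0.0627), and 3.04 (adjusted p = 0.00866) in the paired fit with the replicate block.

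Pf4, the gene of platelet factor 4, was abundant in the leukocytes of both tumours. The normalised counts were 6843, 4482, 10934, 7172 and 7105 in 66cl4 CD45+ cells and 4355, 2716, 2793, 5372 and 3409 in 67NR CD45+ cells. The groups overlapped through 66cl4 animal 4 and 67NR animal 6, and the log2 fold change of 0.98 (SE 0.24, adjusted p = 0.014) was just under the fold threshold. Without 66cl4 animals 5 and 6 it was 0.72 (SE 0.25, adjusted p = 0.08). In CD45- cells the counts were 14.6, 14.96, 204.0, 23.4 and 37.9 in 66cl4 and 99.2, 135.0, 55.3, 321.9 and 45.0 in 67NR tumours. Animal 5 of 66cl4 stood apart as it did for Cxcl2, and the log2 fold change was -1.10 (SE 0.86, adjusted p = 0.281), or -2.49 (adjusted p = 0.0057) without that library. CD45+ cells were above CD45- cells by 6.89 (SE 0.77, adjusted p = 6.61e-06) in 66cl4 and 4.82 (SE 0.52, adjusted p = 9.85e-06) in 67NR tumours, with an interaction of 2.10 (SE 0.84, adjusted p = 0.0492). This call was lost for 16 of the 20 libraries when each was left out, with values from 1.45 to 3.40 over all 20, and the interaction was 3.33 (adjusted p = 0.00355) without 66cl4 animals 5 and 6.

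Most markers of platelets had low counts in CD45+ cells, below the group means of Pf4 and Ppbp. Ppbp itself was only 39.6 and 27.8 in 67NR CD45+ animals 5 and 7, and these counts are not scaled by transcript length. The summed normalised count of 12 platelet and megakaryocyte genes was 335.6 to 513.1 in 66cl4 CD45+, 212.3 to 446.5 in 67NR CD45+, 20.2 to 35.0 in 66cl4 CD45- and 105.3 to 138.7 in 67NR CD45- libraries. Itgb3, which macrophages and stromal cells also use, made up much of the sum in CD45+ cells, with a mean of 324 in 66cl4 and 177 in 67NR. Clec1b had means of 55.9 and 96.1 there, and Gp1ba had 3.68 and 34.7. Itga2b, the platelet integrin, had means of 9.27 in 66cl4 and 18.7 in 67NR CD45+ cells, Gp9 had 0.19 and 0.83, and Gp1bb was at 0 in all 66cl4 libraries. In CD45- cells Itga2b was lower in 66cl4, with 10.9 against 48.2 (log2 fold change -2.08, adjusted p = 4.87e-05), the direction also seen for Ppbp.

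Between genes, levels were compared as TPM, which divide counts by transcript length. Pf4 was counted among the ligand genes here, although it is not a classical CXCR2 agonist. The 6 ligand genes summed to 3398 ± 960.4 TPM (SD, n = 5) in 66cl4 CD45+, 1385 ± 400.7 in 67NR CD45+, 495.0 ± 112.2 in 66cl4 CD45- and 1112 ± 336.7 in 67NR CD45- cells. Cxcl2 led in 66cl4 CD45+ cells with 50.4% ± 7.05 (SD, n = 5) of this sum, followed by Pf4 with 32.9% ± 8.34, and was above Pf4 in 4 of 5 libraries. In 67NR CD45+ cells Pf4 held 42.1% ± 16.4 and Cxcl2 30.8% ± 7.0, an order seen in 3 of 5 libraries and thus within their spread. In 66cl4 CD45- cells Cxcl1 held 46.5% ± 7.65, Cxcl5 36.01% ± 5.74 and Cxcl3 14.5% ± 4.30, with Cxcl1 above Cxcl5 in 4 of 5 libraries and Cxcl5 above Cxcl3 in all. This order of Cxcl1 and Cxcl5 turned with the median in place of the longest transcript length, where Cxcl5 held 44.18%, Cxcl1 41.88% and Cxcl3 8.72%, and Cxcl5 was above Cxcl1 in 3 of 5 libraries. In 67NR CD45- cells Cxcl1 alone held 92.0% ± 3.50, from 88.6% to 96.7%. Cxcr2 itself averaged 165.4 ± 53.4 TPM (SD, n = 5) in 66cl4 CD45+, 38.2 ± 19.3 in 67NR CD45+, 3.68 ± 0.53 in 66cl4 CD45- and 13.9 ± 2.66 in 67NR CD45- cells.

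**Figure D5:**
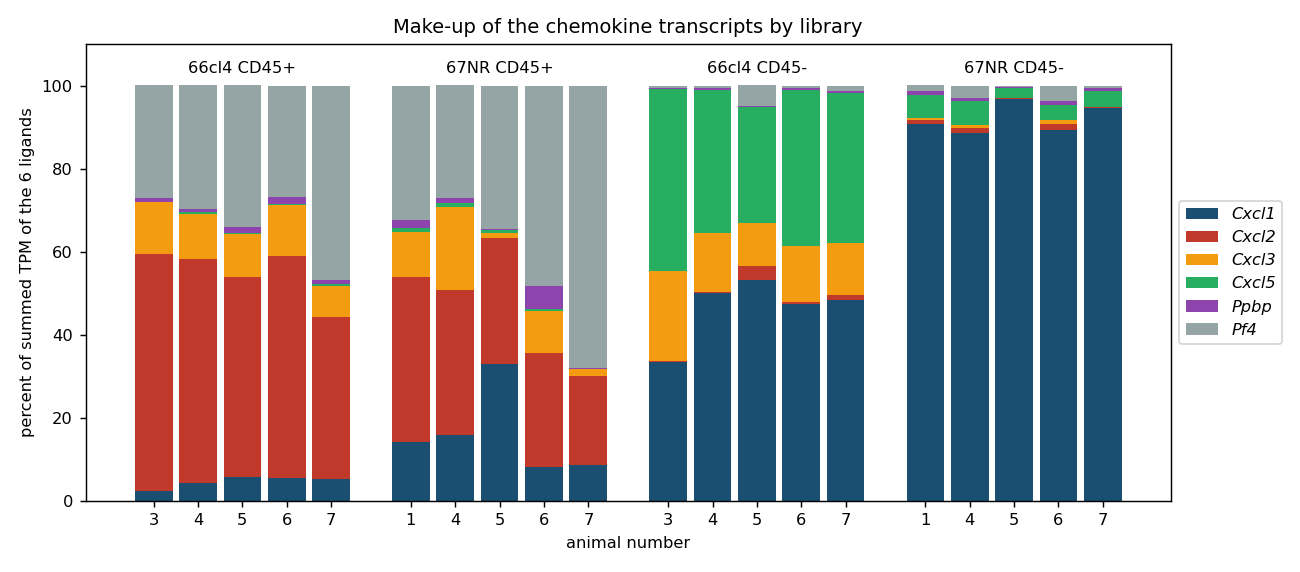
Percent of the summed TPM of the 6 ligand genes taken by each, 1 bar per library, grouped by tumour and gate and labelled by animal number. Cxcl1 takes 88.6% to 96.7% of the 67NR CD45- bars, whereas Cxcl1, Cxcl5 and Cxcl3 share the 66cl4 CD45- bars.

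A list of 16 genes known to act on the expression of these chemokines was examined, which holds inducing cytokines and their receptors, transcription factors and the negative regulators Nfkbia, Tnfaip3 and Zfp36. In CD45+ cells 3 of the 15 tested were higher in 66cl4 tumours, Il1a (log2 fold change 2.77, adjusted p = 0.000888), Il1b (1.25, adjusted p = 0.0162, or 0.88 with adjusted p = 0.107 without 66cl4 animals 5 and 6) and Il17ra (1.12, adjusted p = 0.00103), and 1, the interleukin-1 receptor gene Il1r1, was lower (-1.79, adjusted p = 0.0048). These counts stood beside 5.01% of all genes higher and 6.82% lower, and the median over the list was 0.47. In CD45- cells 1 of 14 was higher in 66cl4 tumours, the NF-κB feedback inhibitor Tnfaip3 (2.58, adjusted p = 2.18e-06), beside 13.2% of all genes. There 5 were lower, beside 18.9%, and the median over the list was -0.79. The lower genes included the cytokine Il6, with 21.7 ± 7.72 (SD, n = 5) in 66cl4 and 477.8 ± 141.1 (SD, n = 5) in 67NR CD45- cells, and Il1r1 (-1.55, adjusted p = 3.37e-08). Il17a was at 0 in all CD45- libraries of both tumours, and its largest normalised count in CD45+ libraries was 8.13.

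Genes with the most similar pattern were sought over the 20 libraries among 16453 genes, as a description of libraries that share 4 groups. For Cxcr2 these were Smox, Mgam and Nlrp12 (Pearson r 0.99, 0.98 and 0.98), for Cxcl2 they were Ccl6, S100a9 and Srgn (each 0.99) and for Pf4 they were Cd300ld, Clec4n and Msr1 (each 0.99). For Cxcl1 they were Memo1, Rep15 and Gtpbp4 (0.95, 0.94 and 0.93), for Cxcl3 Hmox1, Slc7a11 and Atp6v1a (0.93, 0.92 and 0.92), for Cxcl5 AC132253.9, Foxc1 and Zfp948 (each 0.98) and for Ppbp Prokr1, Elmod2 and Rgcc (0.90, 0.88 and 0.87). After group means were subtracted, so that variation among animals remained, Cxcr2 was nearest to Stfa3, Ptgs2os2 and Mrgpra2a (0.92, 0.91 and 0.91) and Cxcl2 to Arg2, Il1b and Il1rn (0.96, 0.95 and 0.93). On that scale Cxcl1 was nearest to Hbegf, Anxa1 and Memo1 (0.90, 0.87 and 0.85), Cxcl3 to Lrg1, Arg1 and Hmox1 (0.83, 0.82 and 0.82) and Cxcl5 to Frk, Gm5930 and AC132253.9 (0.95, 0.95 and 0.94). Ppbp was nearest to Ak4, Nt5e and Gm16587 (0.87, 0.83 and 0.83) and Pf4 to Cd300ld, Ccl6 and F10 (0.92, 0.90 and 0.89). Among the 7 genes themselves the closest pair was Cxcl2 and Pf4, with r of 0.99 over the libraries and 0.83 after group means were subtracted, followed on the latter scale by Cxcl3 and Ppbp with 0.74.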

How the data were processed

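RNA of sorted cells was made into SENSE mRNA libraries and sequenced as single reads. Per the labels and the study's methods, the authors quantified transcripts with Salmon 1.3.0 and summed them per gene, so the deposited values are estimated counts, not whole in 15.1% to 18.0% of values per library, and were rounded. The reference build is named as a human one although the identifiers are mouse genes, so no coordinates were taken from the table. How Salmon shared reads among related transcripts of Cxcl1, Cxcl2 and Cxcl3 could affect their split, which was not tested. Their values were whole, to within 0.001, in 20 of 20 libraries for Cxcl1, 2 for Cxcl2 and 2 for Cxcl3. Those of Cxcr2 were whole in 0 of 20. These counts of libraries do not give the number of reads shared. Symbols came from a reference list that matched 51492 of 52783 identifiers.

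Each comparison was fitted on its 10 libraries with edgeR 4.0.16 (TMM factors, filterByExpr with a minimum count of 10, robust quasi-likelihood test) under R 4.3.3, with Benjamini-Hochberg adjustment over all tested genes. The 2-by-2 interaction used all 20 libraries. Neither it nor the comparisons between the gates of a tumour paired the gates of an animal. All 7 members passed the filter in every comparison, although Cxcl3 in 67NR CD45- and Cxcl2 in 66cl4 CD45- cells were under 10 counts in 1 library each and passed through the other group. Normalised counts used DESeq2 1.42.0 size factors. TPM used the longest coding transcript of the reference and left out 1291 genes without a length, 2.58% of counts. Simulated data with known changes were used to test the fits. A floor of 3 counts is 0.107 to 0.231 CPM across libraries.

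Members and gene lists were chosen with earlier results of these data known. The genes named are the members, the list genes, Ptprc and the 3 genes most correlated with each member over log2 CPM (prior count 2). Replicates are separate animals. The gates of a tumour share animals, though their deviations from group means correlated at only -0.0033 to 0.32. Replicate pairs differed beyond sampling noise, with a chi-square per degree of freedom of 12.3 to 153. Alternatives were DESeq2, RLE factors, other filters, the replicate block, all libraries in the fit, a test against a log2 fold change of 1, other transcript lengths and leaving out libraries.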

Additional observations from a re-analysis of the deposited data

Results flagged for a closer look

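Among 28 sets of 5 normalised counts, 3 held a library far from the other 4, where about 1.4 would be so by chance. Cxcr2 in 66cl4 CD45- cells was 96.9 in animal 3, below 127.8 to 138.2 in the others. In 66cl4 CD45- cells of animal 5, Cxcl2 was 424.5, above 11.9 to 111.8 in the others, and Pf4 was 204.0, above 14.6 to 37.9. That library had a Ptprc count of 138.2, second to the 160.7 of animal 7, and a summed macrophage count of 2338, the highest of its group.

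The tumour effect differed between the gates for 5 members by the interaction test of edgeR without pairing by animal. The difference, CD45+ minus CD45- on the log2 scale, was 3.99 for Cxcr2, 1.71 for Cxcl1, 2.54 for Cxcl2, -2.17 for Cxcl5 and 2.10 for Pf4. The adjusted p was 9.27e-07, 0.0248, 0.0361, 0.00731 and 0.0492, respectively, so those of Cxcr2 and Cxcl5 were the furthest from the threshold.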

How the results depend on the processing

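Of the log2 fold changes of the 7 genes, 247 of 266 values under settings other than leaving out 1 library kept their direction and their side of the threshold, and 374 of 420 did when 1 library was left out. In CD45+ cells, a test against a log2 fold change of 1 left 0 genes called higher in 66cl4 (Cxcr2 2.01, Cxcl2 1.91), and Cxcr2 between the 67NR gates (1.51) was then not called. Between tumours a replicate number is shared by different mice (correlation of deviations -0.145 to 0.0829), and a replicate block on it brought Pf4 past the threshold in CD45+ cells (1.07) and turned Cxcl5 to 0.58, while leaving out 66cl4 animals 5 and 6 turned Ppbp to -0.34; neither gene was called. Without these animals Pf4 in CD45- cells was called (-2.49). Ppbp between the 67NR gates was called with DESeq2 (2.10), RLE factors (2.09) and all 20 libraries in the fit (2.06).

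The interactions were the least steady results. Without a filter on low counts 2 genes remained past the threshold, and Cxcl1 (1.66), Cxcl2 (2.49) and Pf4 (2.05) were not. Cxcl1 was also lost without 66cl4 animals 5 and 6 (1.45), and Pf4 with DESeq2 (2.12) and with at least 10 counts in 5 libraries (1.99). Ppbp was gained with DESeq2 (2.50), and in the paired fit with the replicate block Cxcl3 (-2.69) and Ppbp (3.04) were gained. The cause of these changes was not tested.

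Leaving out 1 library at a time gave interactions of 1.31 to 2.03 for Cxcl1, 2.14 to 3.81 for Cxcl2, -3.43 to -1.95 for Cxcl3, 2.04 to 3.50 for Ppbp and 1.45 to 3.40 for Pf4, with 2 to 5 genes past the threshold. In CD45+ cells it gave -0.57 to 0.17 for Cxcl5, positive without 67NR animal 1, and 0.80 to 1.139 for Pf4; the log2 ratio of mean levels of Cxcl5 was -0.58 to 0.18. In CD45- cells it gave -1.97 to -0.30 for Cxcl2 and -2.49 to -0.46 for Pf4, with 3 to 5 genes called lower. Between the 67NR gates it gave 1.07 to 2.41 for Ppbp.

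With median transcript lengths Cxcl1 held 88.1% of ligand TPM in 67NR CD45- and 2.61% in 66cl4 CD45+ cells, and Pf4 held 3.72% and Cxcl2 1.51% in 67NR CD45- cells. Under the same lengths Cxcl5 held 44.18%, Cxcl3 8.72% and Ppbp 0.513% among 66cl4 CD45- cells, and Cxcl3 held 4.04% among their CD45+ counterparts. Counts of called genes in the other lists moved by over 1.5 times in 26 of 200 cases. Low counts limit Cxcl2, Cxcl3, Ppbp and Pf4 in CD45- cells.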
